A study of Mus musculus with 10 samples.

Results

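The genes described here build, supply and mark inhibitory synapses: 11 subunits of the GABA-A receptor, 10 genes of GABA synthesis, transport and the inhibitory synapse, and 8 markers of interneurons. These 29 genes were chosen by symbol from the 19938 genes named on the array, and all 29 were measured. Hippocampal RNA came from 5 male Ts65Dn mice and 5 male control littermates aged 16 weeks, both hippocampi of a mouse being pooled, and each mouse was read on its own Affymetrix Mouse Gene 1.0 ST array. Ts65Dn mice carry a small extra chromosome that adds an additional copy of part of mouse chromosome 16 and of the stretch of chromosome 17 next to its centromere. Controls lack it, and both genotypes shared the F1 hybrid B6C3B background, in which C3B is a C3H/HeH line congenic for the BALB/c allele of Pde6b. The labels do not give the parental alleles that a mouse carried at any one locus. None of the 29 genes is in the extra copy: 0 lie on chromosome 17, and the 2 on chromosome 16, Sst and Abat, lie outside the segment from Mrpl39 to Zbtb21.

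GABA, the main inhibitory transmitter of the adult brain, is made from glutamate, loaded into vesicles and released onto GABA-A receptors, which are chloride channels assembled from 5 subunits. Which alpha subunit a receptor holds sets much of its pharmacology and its place on the cell, and the direction of chloride flow depends on transporters that load or extrude chloride. In the hippocampus the transmitter comes mainly from interneurons, a small and varied fraction of the neurons that are told apart by the calcium-binding proteins and peptides they contain. The study set out to relate trisomic segments to brain phenotypes, and the comparison here asked whether RNA of inhibitory genes differed between Ts65Dn and control hippocampi.

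The promoters of 4 genes are shown because they recur below: Gabra2 and Slc6a11 had the smallest p-values of the 29 genes, and Sst and Vip are interneuron peptides that carry a cAMP response element or its core. Each is the 250 bases before the transcript start used in a promoter table made from RefSeq on GRCm38.p6, on the strand of the gene. The outer bounds of a gene span all its annotated transcripts, so they take in the whole Sst window and the last 25 bases of the Vip window. Capitals mark TGACGTCA, the full element bound by CREB and long known from the somatostatin promoter, or TGACG, the core that the full element contains, searched on both strands. Gabra2 (chr5:71095850-71096099, minus strand) and Slc6a11 (chr6:114130991-114131240, plus strand) hold neither word in this window, whereas Sst (chr16:23890845-23891094, minus strand) holds the full element and Vip (chr10:5638968-5639217, plus strand) the core.
Gabra2: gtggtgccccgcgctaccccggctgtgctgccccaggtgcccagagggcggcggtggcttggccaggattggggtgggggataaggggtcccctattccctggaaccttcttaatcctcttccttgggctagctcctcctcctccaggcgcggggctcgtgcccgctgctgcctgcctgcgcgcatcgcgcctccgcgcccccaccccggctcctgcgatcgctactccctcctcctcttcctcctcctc
Slc6a11: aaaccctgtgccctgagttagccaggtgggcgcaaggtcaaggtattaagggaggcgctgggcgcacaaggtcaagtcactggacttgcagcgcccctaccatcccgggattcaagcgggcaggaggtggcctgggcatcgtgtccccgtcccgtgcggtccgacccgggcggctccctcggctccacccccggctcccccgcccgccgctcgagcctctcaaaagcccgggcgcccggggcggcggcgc
Sst: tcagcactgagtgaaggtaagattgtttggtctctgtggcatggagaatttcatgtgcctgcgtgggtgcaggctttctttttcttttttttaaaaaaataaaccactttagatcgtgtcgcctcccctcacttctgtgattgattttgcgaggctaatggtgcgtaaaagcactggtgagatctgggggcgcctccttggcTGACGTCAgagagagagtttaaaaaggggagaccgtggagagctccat
Vip: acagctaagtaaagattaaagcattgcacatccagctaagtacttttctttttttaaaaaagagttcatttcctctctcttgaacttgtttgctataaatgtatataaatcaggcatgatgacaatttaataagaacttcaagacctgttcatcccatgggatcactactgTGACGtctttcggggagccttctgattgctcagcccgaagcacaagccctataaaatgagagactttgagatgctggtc
The windows of Gabra2 and Slc6a11 were rich in G and C (70.0% and 71.2%), those of Sst and Vip less so (47.2% and 38.4%). The table listed promoters for 25 of the 29 genes. TGACGTCA occurred in 1.55% of all 32851 windows and, of the 25 genes, in Sst alone, while TGACG occurred in 17.8% of windows and in 4 of the genes (Cck, Gad2, Sst and Vip).

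No gene of the 29 passed the test. All values below are deposited log2 signals, on which 1 unit is a doubling, and differences are Ts65Dn minus control from limma with Benjamini-Hochberg adjustment over 23410 transcript clusters (probe sets for a transcript). By this test 0 of 29 genes passed adjusted p 0.05 in either direction, against a background of 74 called transcript clusters (0.316%), 73 of them higher and 1 lower. Gabra2 and Slc6a11, both lower in Ts65Dn mice, were the 2 of 29 genes (6.90%) with an unadjusted p under 0.05, against 3.16% of all transcript clusters. For 0 of 29 genes did the 5 Ts65Dn values lie wholly above or below the 5 control values, which happened for 0.884% of transcript clusters. In hippocampal homogenate a smaller number of cells of a type and less RNA per cell cannot be told apart.

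Differences were small for most of the genes. The estimate lay within 0.1 of 0 for 21 of 29 genes and within 0.25 for 28, Gabra2 being the exception, and the 95% interval lay within 0.5 either side of 0 for 25. Of the genes, 9 had a positive difference and 20 a negative one, so that 31.0% were positive, against 47.6% of all genes. The median difference of the 29 was -0.03, against 0.00 for all genes.

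**Figure D1:**
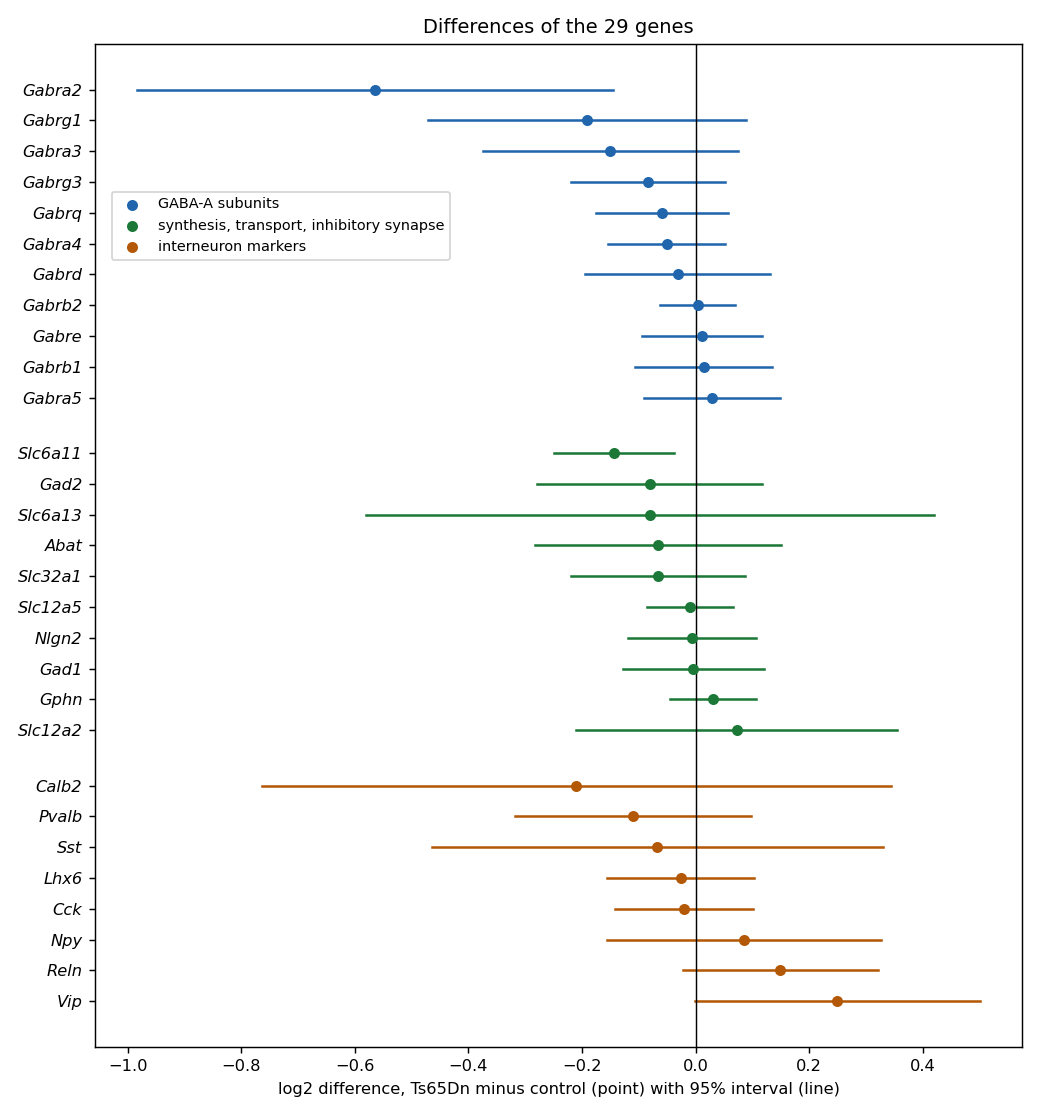
Log2 difference between Ts65Dn and control mice for each of the 29 genes (point) with its 95% interval (line), by group and in order of size; the vertical line marks no difference. Gabra2, at -0.56, lies farthest from 0, and the intervals of Gabra2 and Slc6a11 alone exclude 0.

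Gabra2, which encodes the alpha2 subunit of GABA-A receptors found at synapses on the axon initial segment and dendrites, gave the largest difference of the 29 genes. Its log2 signal was 11.30, 11.20, 10.59, 10.68 and 11.78 in Ts65Dn replicates 1 to 5, and 11.70, 11.72, 11.74, 11.47 and 11.74 in control replicates 1 to 5. In all, 4 Ts65Dn mice lay below every control mouse and the fifth, replicate 5, lay above all of them. As a fold of the control mean, Ts65Dn replicates 3 and 4 stood at 0.472 and 0.501, replicates 1 and 2 at 0.770 and 0.720, and replicate 5 at 1.08. A Ts65Dn mouse was therefore lower than a control mouse in 20 of 25 pairs.

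Mean Gabra2 signal was 11.11 ± 0.49 in Ts65Dn mice and 11.67 ± 0.12 in control mice (SD, n = 5 each). The limma difference was -0.56 ± 0.19 (SE; 95% interval -0.98 to -0.15, a fold of 0.676, unadjusted p = 0.0127, adjusted p = 1.00). An exact two-sided permutation test over the 252 allocations gave p = 0.0476, where the smallest possible is 0.00794. The permutation p-value is for this gene alone and is not adjusted. Because Gabra2 was chosen with earlier results of these data known, that p-value is descriptive only. By size of the difference Gabra2 ranked 12 among 19938 genes, and by p-value 241. The Ts65Dn mice were widely spread, and the SD of Gabra2 exceeded that of 99.5% of genes among Ts65Dn mice and 77.8% among control mice. Leaving out Ts65Dn replicate 5, the mouse above all controls, moved the limma difference to -0.73, with an adjusted p of 0.111 and an unadjusted p of 0.000378. These were the lowest p-values when each of the 10 mice was left out in turn. Over those fits the difference ran from -0.73 to -0.44, and the unadjusted p reached 0.0333 without Ts65Dn replicate 4. Replicate 5 stands out by its Gabra2 value itself, so the fit without it is descriptive only.

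Gabra2 lies on chromosome 5 (GRCm38.p6, 70958392 to 71095849) within a cluster of 4 receptor genes, in the order Gabrg1, Gabra2, Gabra4 and Gabrb1. Gabrg1, which encodes a gamma subunit, had 8.90, 9.22, 8.80, 9.18 and 9.43 in Ts65Dn mice, and 9.04, 9.57, 9.22, 9.20 and 9.45 in control mice. Replicate 3 was the lowest Ts65Dn mouse and replicate 5 the highest, as for Gabra2, but the genotypes overlapped widely (difference -0.19 ± 0.13, SE, adjusted p = 1.00). Gabra4, the alpha4 subunit of receptors outside synapses in the dentate gyrus, had 11.55, 11.46, 11.61, 11.51 and 11.61 in Ts65Dn mice, and 11.62, 11.56, 11.54, 11.57 and 11.73 in control mice. Gabrb1, a beta subunit whose annotated 5′ end overlaps that of Gabra4 by 388 bases in head-to-head orientation, had 11.48, 11.43, 11.62, 11.64 and 11.46 in Ts65Dn mice, and 11.37, 11.52, 11.53, 11.60 and 11.55 in control mice. Differences of these neighbours were -0.05 ± 0.05 and 0.01 ± 0.06 (SE), with 95% intervals from -0.15 to 0.05 and from -0.11 to 0.14. In Ts65Dn replicates 3 and 4, the mice with the lowest Gabra2, Gabrb1 had the 2 highest values of its genotype.

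**Figure D2:**
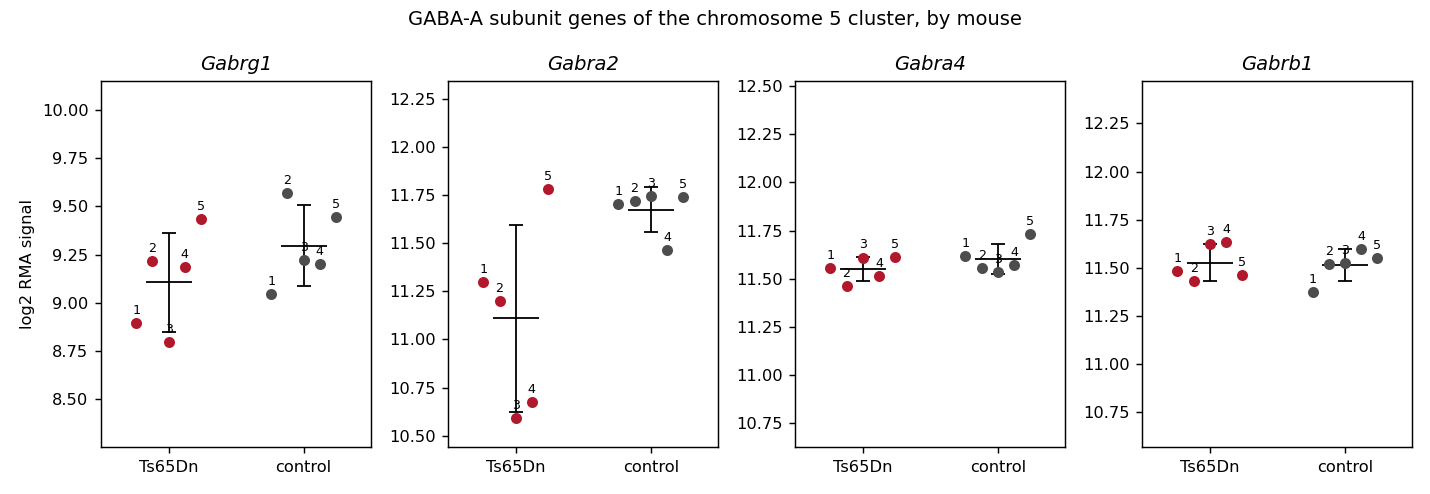
Log2 signal of the 4 receptor genes of the chromosome 5 cluster in each mouse (points, numbered by replicate), with the mean and SD of each genotype (black, n = 5); every panel spans the same range on its axis. Ts65Dn mice lie farthest below the control mice for Gabra2, at 10.59 and 10.68.

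The pattern of Gabra2 over the 10 mice was set beside that of every other gene by the mean absolute difference of standardised values, taken as they were or mirrored. The nearest gene was Cox6a1, a subunit of cytochrome c oxidase, at a distance of 0.23 and mirrored. Its signal was 11.55, 11.57, 12.06, 12.06 and 10.98 in Ts65Dn mice, and 11.03, 11.46, 11.18, 11.51 and 11.16 in control mice, so that it was highest in the Ts65Dn mice with the least Gabra2 RNA and lowest in replicate 5. Next came Mettl24 (0.25, mirrored), Pebp1 (0.29, mirrored), Sh3tc2 (0.29, same direction) and Cemip2 (0.30, mirrored). Of the 20 nearest genes, 10 were mirrored and 3 lay on chromosome 5 (Cox6a1, Pebp1, and Coq2 at a distance of 0.32), where 5.73% of the 19851 placed genes lie. The 3 were 44.4, 46.3 and 29.7 Mb from Gabra2, and 0 of the 20 lay within 20 Mb of it. These likenesses were not tested.

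The other alpha, beta and gamma subunits gave smaller differences. Gabra5, the alpha5 subunit that is abundant in hippocampal pyramidal neurons and a pharmacological target in Down syndrome models, averaged 12.43 ± 0.09 in Ts65Dn mice and 12.40 ± 0.09 in control mice (SD, n = 5 each), a difference of 0.03 with a 95% interval from -0.09 to 0.15. Gabra3, the alpha3 subunit, averaged 11.16 ± 0.18 in Ts65Dn mice and 11.31 ± 0.19 in control mice (difference -0.15 ± 0.10, SE). Gabrb2, a beta subunit common in synaptic receptors, averaged 11.89 ± 0.02 in both genotypes, and its 3 transcript clusters differed by -0.00, 0.01 and 0.00. It was the tightest estimate of the 29, with a 95% interval from -0.06 to 0.07. Gabrg3, a gamma subunit, averaged 10.03 ± 0.08 in Ts65Dn mice and 10.11 ± 0.13 in control mice (difference -0.08 ± 0.06, SE).

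Subunits with a narrower distribution showed no larger differences. Gabrd, the delta subunit that joins alpha4 in receptors outside synapses, averaged 8.65 ± 0.16 in Ts65Dn mice and 8.68 ± 0.09 in control mice (difference -0.03 ± 0.07, SE). Gabre and Gabrq, the epsilon and theta subunits, are neighbours of Gabra3 on the X chromosome and gave low signals on this array. Gabre averaged 5.15 ± 0.04 in Ts65Dn mice and 5.14 ± 0.10 in control mice, and Gabrq 5.38 ± 0.07 in Ts65Dn mice and 5.44 ± 0.10 in control mice. Their differences were 0.01 and -0.06, and RMA compresses ratios of dim genes.

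Over the 11 subunits 4 differences were positive and 7 negative, with a median of -0.05, against 0.00 for all genes. The mean signal of the 11 genes was 9.83, 9.82, 9.75, 9.77 and 9.92 in Ts65Dn mice, and 9.89, 9.97, 9.90, 9.88 and 9.92 in control mice. Ts65Dn replicate 5, the mouse with the most Gabra2 RNA, was the one that reached the control range. Without Gabra2 the mean of the other 10 was 9.68, 9.68, 9.66, 9.68 and 9.74 in Ts65Dn mice, and 9.71, 9.80, 9.71, 9.73 and 9.74 in control mice, and the median difference was -0.04. Here too Ts65Dn replicate 5 alone lay within the control range, so that pattern did not rest on Gabra2 alone.

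**Figure D3:**
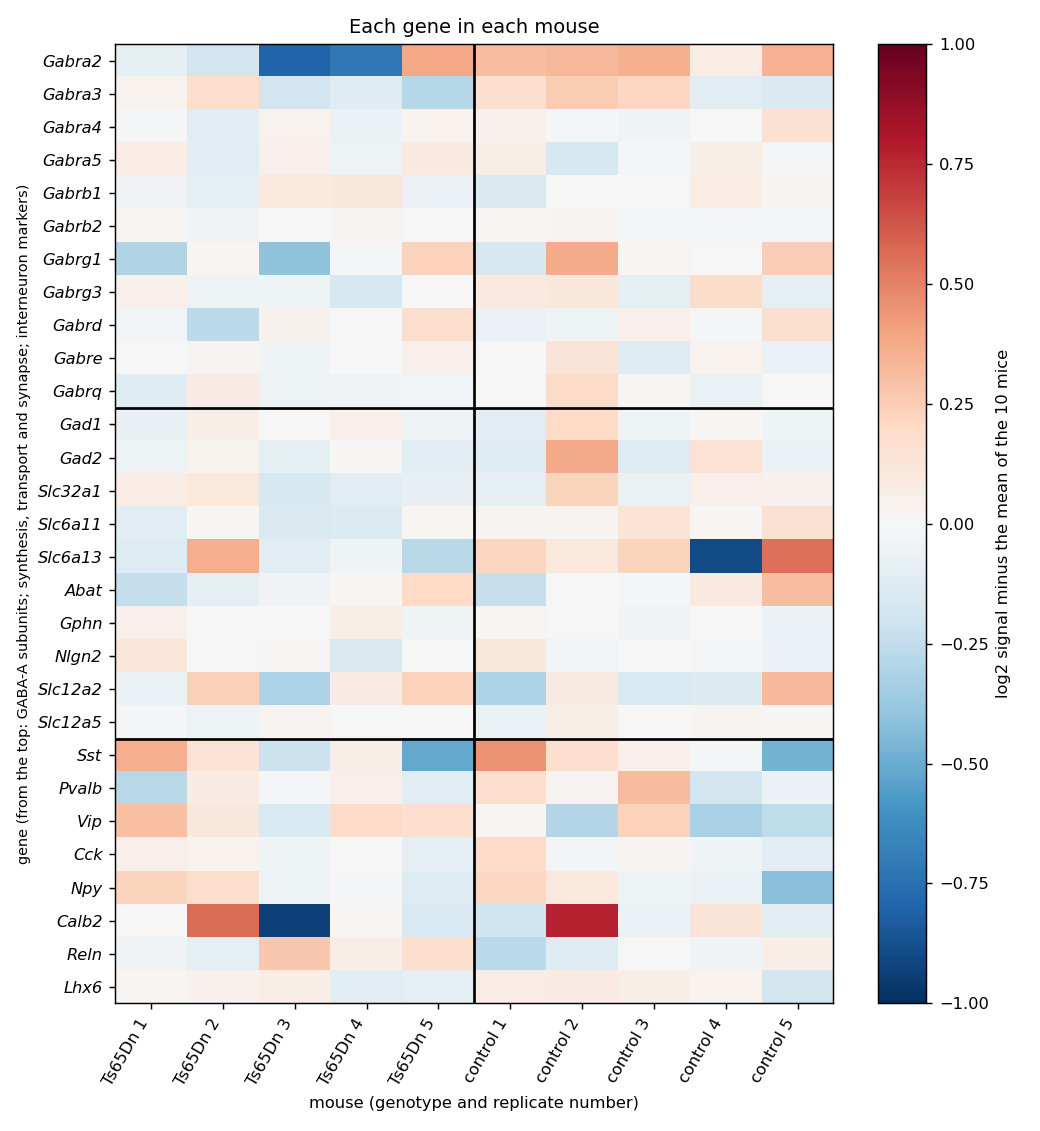
Log2 signal of each of the 29 genes in each mouse, shown as the deviation from the mean of all 10 mice (blue below, red above), with Ts65Dn mice to the left of the black vertical line and control mice to the right. The strongest blue cells are Gabra2 in Ts65Dn replicates 3 and 4, Calb2 in Ts65Dn replicate 3 and Slc6a13 in control replicate 4.

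Slc6a11 encodes GAT3, the transporter by which astrocytes clear GABA, and had the smallest p-value of the 29 genes. Its signal was 10.81, 10.93, 10.77, 10.78 and 10.93 in Ts65Dn mice, and 10.94, 10.95, 11.06, 10.93 and 11.07 in control mice. The genotypes met only at 10.93, where Ts65Dn replicates 2 and 5 reached control replicate 4. The difference was -0.14 ± 0.05 (SE; 95% interval -0.25 to -0.04, a fold of 0.905, unadjusted p = 0.0126, adjusted p = 1.00), and it stayed between -0.17 and -0.12 whichever mouse was left out. Astrocyte markers gave a mean level of 10.67 to 10.73 in Ts65Dn mice and 10.71 to 10.77 in control mice over 6 of 6 genes, their summed linear signal being 13629 to 14602 in Ts65Dn mice and 14373 to 14990.3 in control mice. Their part in the Slc6a11 difference was not tested.

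The enzymes that make GABA did not separate the genotypes. Gad1, which encodes the enzyme GAD67, had 11.14, 11.28, 11.21, 11.26 and 11.16 in Ts65Dn mice, and 11.10, 11.41, 11.16, 11.23 and 11.17 in control mice (difference -0.00 ± 0.06, SE; 95% interval -0.13 to 0.12). Gad2, which encodes GAD65 of nerve terminals, had 10.55, 10.63, 10.50, 10.61 and 10.48 in Ts65Dn mice, and 10.47, 10.97, 10.46, 10.74 and 10.53 in control mice (difference -0.08 ± 0.09, SE; 95% interval -0.28 to 0.12). Control replicate 2 stood highest for both. Without it the differences were 0.04 for Gad1 and 0.00 for Gad2. Slc32a1, the vesicular GABA transporter, was also highest in that mouse among controls and averaged 8.48 ± 0.11 in Ts65Dn mice and 8.54 ± 0.13 in control mice.

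Genes of GABA breakdown and of the postsynaptic scaffold were close between genotypes. Abat, the transaminase that degrades GABA, averaged 11.71 ± 0.16 in Ts65Dn mice and 11.78 ± 0.19 in control mice (difference -0.07 ± 0.10, SE). Gphn, which encodes gephyrin, the scaffold that anchors the receptors, averaged 10.59 ± 0.04 in Ts65Dn mice and 10.56 ± 0.03 in control mice (difference 0.03 ± 0.03, SE). Nlgn2, the adhesion molecule neuroligin 2 of inhibitory synapses, averaged 10.37 ± 0.09 in Ts65Dn mice and 10.37 ± 0.07 in control mice (difference -0.01 ± 0.05, SE).

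The balance of the chloride transporters Slc12a2 (NKCC1, which loads chloride) and Slc12a5 (KCC2, which extrudes it in mature neurons) bears on whether GABA inhibits. Slc12a2 had 9.71, 10.0004, 9.46, 9.85 and 9.995 in Ts65Dn mice, and 9.46, 9.85, 9.62, 9.63 and 10.09 in control mice (difference 0.07 ± 0.13, SE; 95% interval -0.21 to 0.36). Slc12a5 had 11.16, 11.12, 11.20, 11.18 and 11.17 in Ts65Dn mice, and 11.10, 11.23, 11.17, 11.20 and 11.18 in control mice (difference -0.01 ± 0.03, SE; 95% interval -0.09 to 0.07). Slc12a5 lay within a narrow band, while Slc12a2 varied between mice of either genotype. The log2 difference of Slc12a2 and Slc12a5 within a mouse was -1.45, -1.12, -1.75, -1.33 and -1.17 in Ts65Dn mice, and -1.64, -1.38, -1.55, -1.57 and -1.09 in control mice. Its level depends on the probes of both genes, and its mean was -1.36 ± 0.25 in Ts65Dn mice and -1.45 ± 0.22 in control mice (SD, n = 5 each), an offset of 0.08 that is smaller than either SD.

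Slc12a2 is also abundant in choroid plexus epithelium, whose genes varied widely between mice of both genotypes. The mean level of 9 choroid plexus genes of 10 listed was 6.95, 9.57, 6.82, 9.07 and 8.10 in Ts65Dn mice, and 7.56, 8.36, 6.92, 6.89 and 9.32 in control mice, and their summed linear signal was 1407 to 19005 in Ts65Dn mice and 1663 to 17199 in control mice. These genes include Clic6 and Kcne2, genes of the extra chromosome. Clic6 and Kcne2 differed between genotypes by 0.66 ± 0.78 and 0.39 ± 0.39 (SE), against a median of 0.24 for the list. Their 95% intervals, -1.05 to 2.37 and -0.46 to 1.23, include 0. Ts65Dn replicates 2, 4 and 5 were the 3 highest of their genotype for Slc12a2 and for the choroid plexus genes alike, and control replicates 5 and 2 were the 2 highest of theirs. Slc6a13, the GABA transporter GAT2 of meninges and vessels, averaged 7.99 ± 0.24 in Ts65Dn mice and 8.07 ± 0.55 in control mice (difference -0.08 ± 0.23, SE). It was highest in Ts65Dn replicate 2 (8.39) and control replicate 5 (8.58) and lowest in control replicate 4 (7.13), and 8 meningeal genes, a list added after the Slc6a13 values were seen, had mean levels of 8.43, 8.33 and 7.61 in those mice. Over all mice that list ran from 7.78 to 8.43 in Ts65Dn mice (summed linear signal 2568 to 4945) and from 7.61 to 8.33 in control mice (2210.3 to 4577). The part of such tissue in Slc12a2 or Slc6a13 was not tested.

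**Figure D4:**
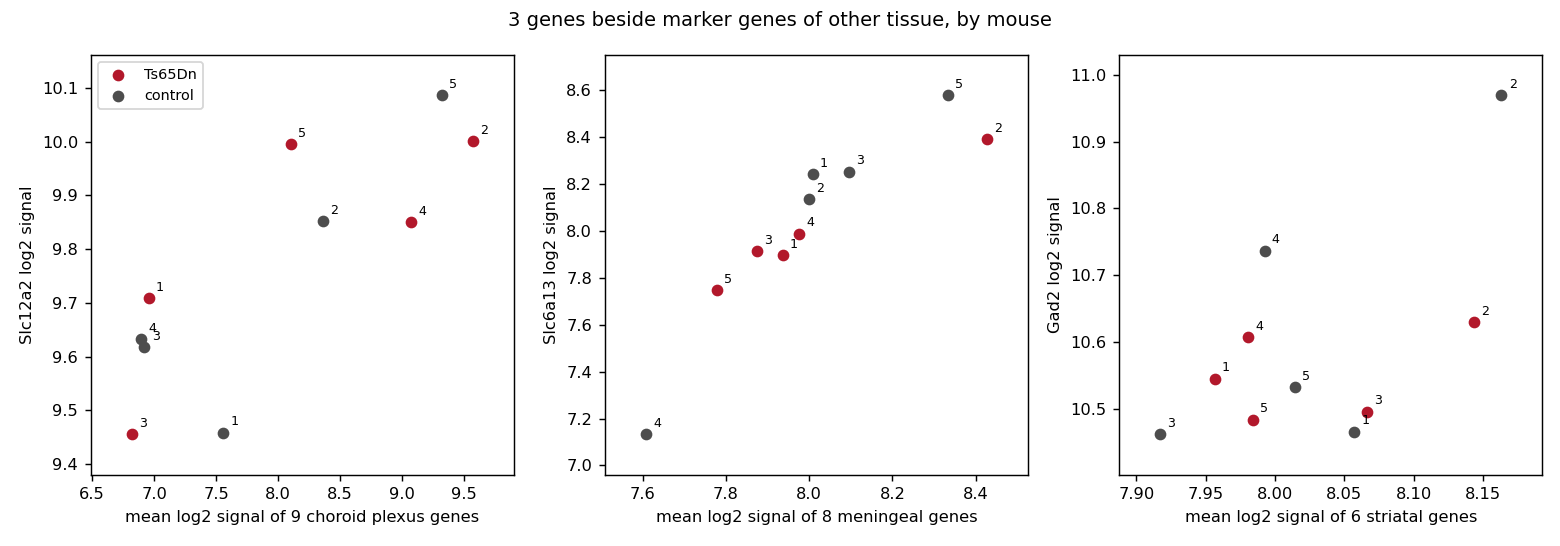
Log2 signal of Slc12a2, Slc6a13 and Gad2 in each mouse (vertical axes) beside the mean log2 signal of choroid plexus, meningeal and striatal genes (horizontal axes). Points are mice numbered by replicate. The choroid plexus mean includes Clic6 and Kcne2, and the striatal mean Pde10a, which are genes of the extra chromosome. Slc6a13 is lowest at 7.13 and highest at 8.58, in the control mice with the lowest and highest meningeal signal. The meningeal list was added after the Slc6a13 values were seen. Col1a1 and Col3a1 of that list shared neither of these control extremes. Dcn and Slc22a6 shared the lowest but were highest in control replicate 3 (10.44 and 7.05).

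Of the 10 genes of synthesis, transport and the synapse, 2 had positive differences (Gphn and Slc12a2) and 8 negative ones, with a median of -0.04. Their mean signal was 10.25, 10.36, 10.21, 10.27 and 10.28 in Ts65Dn mice, and 10.23, 10.40, 10.28, 10.22 and 10.41 in control mice, and the genotypes overlapped.

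Among interneuron markers the widest positive difference was that of Vip, a peptide of interneurons that mostly inhibit other interneurons. Its signal was 8.61, 8.43, 8.16, 8.50 and 8.48 in Ts65Dn mice, and 8.33, 8.02, 8.54, 7.98 and 8.05 in control mice. In this gene 4 Ts65Dn mice exceeded 4 control mice, while Ts65Dn replicate 3 and control replicate 3 ran the other way. The difference was 0.25 ± 0.11 (SE; 95% interval -0.00 to 0.50, a fold of 1.19, unadjusted p = 0.0513, adjusted p = 1.00). Reln, which encodes the secreted protein reelin of Cajal-Retzius cells and interneurons, averaged 9.50 ± 0.15 in Ts65Dn mice and 9.35 ± 0.13 in control mice (difference 0.15 ± 0.08, SE; unadjusted p = 0.0827, adjusted p = 1.00). It ran from 9.33 to 9.69 in Ts65Dn mice and from 9.15 to 9.49 in control mice.

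Sst and Npy, peptides of dendrite-targeting interneurons, varied more between mice than between genotypes. Sst had 12.20, 11.97, 11.62, 11.90 and 11.33 in Ts65Dn mice, and 12.28, 12.00, 11.89, 11.82 and 11.36 in control mice (difference -0.07 ± 0.18, SE; 95% interval -0.46 to 0.33). Npy had 11.17, 11.13, 10.90, 10.94 and 10.82 in Ts65Dn mice, and 11.16, 11.06, 10.90, 10.89 and 10.53 in control mice (difference 0.09 ± 0.11, SE; 95% interval -0.16 to 0.33). In both genotypes the mouse numbered 1 was highest and the mouse numbered 5 lowest for both peptides. Cck, the peptide of a basket cell class that many pyramidal neurons also transcribe, shared those extremes. It had 12.38, 12.37, 12.29, 12.33 and 12.24 in Ts65Dn mice, and 12.52, 12.30, 12.36, 12.29 and 12.23 in control mice (difference -0.02 ± 0.06, SE).

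What the replicate numbers stand for is not given in the labels. The mouse numbered 5 was the lowest in both genotypes for 5 of the 29 genes (Gabra3, Gphn, Sst, Cck and Npy), against 9.28% of all genes, and the highest in both for 4 (Gabra4, Gabrd, Slc6a11 and Abat), against 7.52%. Together these were 31.0% of the 29 genes and 16.8% of all genes. The mouse numbered 2 was the highest of its genotype for 9 of the 29 genes in Ts65Dn mice (31.0%, against 14.3% of all genes) and for 11 in control mice (37.9%, against 15.7%). Gabra3, Gabrq, Gad1, Gad2, Slc32a1 and Calb2 were among them in both genotypes. Striatal marker genes, of which 6 of 8 were measured, also had their highest mean level in the mouse numbered 2, where the range was 7.96 to 8.14 in Ts65Dn mice and 7.92 to 8.16 in control mice. Their summed linear signal was 2215 to 2400 in Ts65Dn mice and 1928 to 2172 in control mice, a sum that includes Pde10a, a gene of the extra chromosome. In control replicate 2 the high mean rested on Drd2, at 8.62 against 7.32 to 7.86 in the other control mice, while Pde10a was the lowest control at 9.80 and Drd1 the second lowest at 7.46. In Ts65Dn replicate 2 Drd2, Rgs9 and Ppp1r1b were the highest of the genotype, while Pde10a was the lowest at 10.22 and Drd1 the second lowest at 7.59. Thalamic marker genes, 6 of 6 measured, had their highest mean level in Ts65Dn replicate 2 (8.20). Among control mice replicate 5 (8.54) exceeded replicate 2 (8.30) for that list. Whether neighbouring tissue contributed to these values was not tested.

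The remaining markers overlapped between genotypes. Pvalb, which encodes parvalbumin of fast-spiking basket cells, had 8.69, 9.04, 8.94, 9.01 and 8.85 in Ts65Dn mice, and 9.13, 8.99, 9.27, 8.78 and 8.91 in control mice (difference -0.11 ± 0.09, SE; 95% interval -0.32 to 0.10). Calb2, which encodes calretinin, averaged 9.17 ± 0.54 in Ts65Dn mice and 9.38 ± 0.39 in control mice, and its extremes were Ts65Dn replicate 3 at 8.34 and control replicate 2 at 10.05. The 95% interval of its difference, from -0.76 to 0.34, was the widest of the 29 genes, and the difference was -0.00 without Ts65Dn replicate 3 and -0.04 without control replicate 2. Lhx6, a transcription factor of interneurons born in the medial ganglionic eminence, averaged 8.33 ± 0.08 in Ts65Dn mice and 8.35 ± 0.11 in control mice (difference -0.03 ± 0.06, SE).

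**Figure D5:**
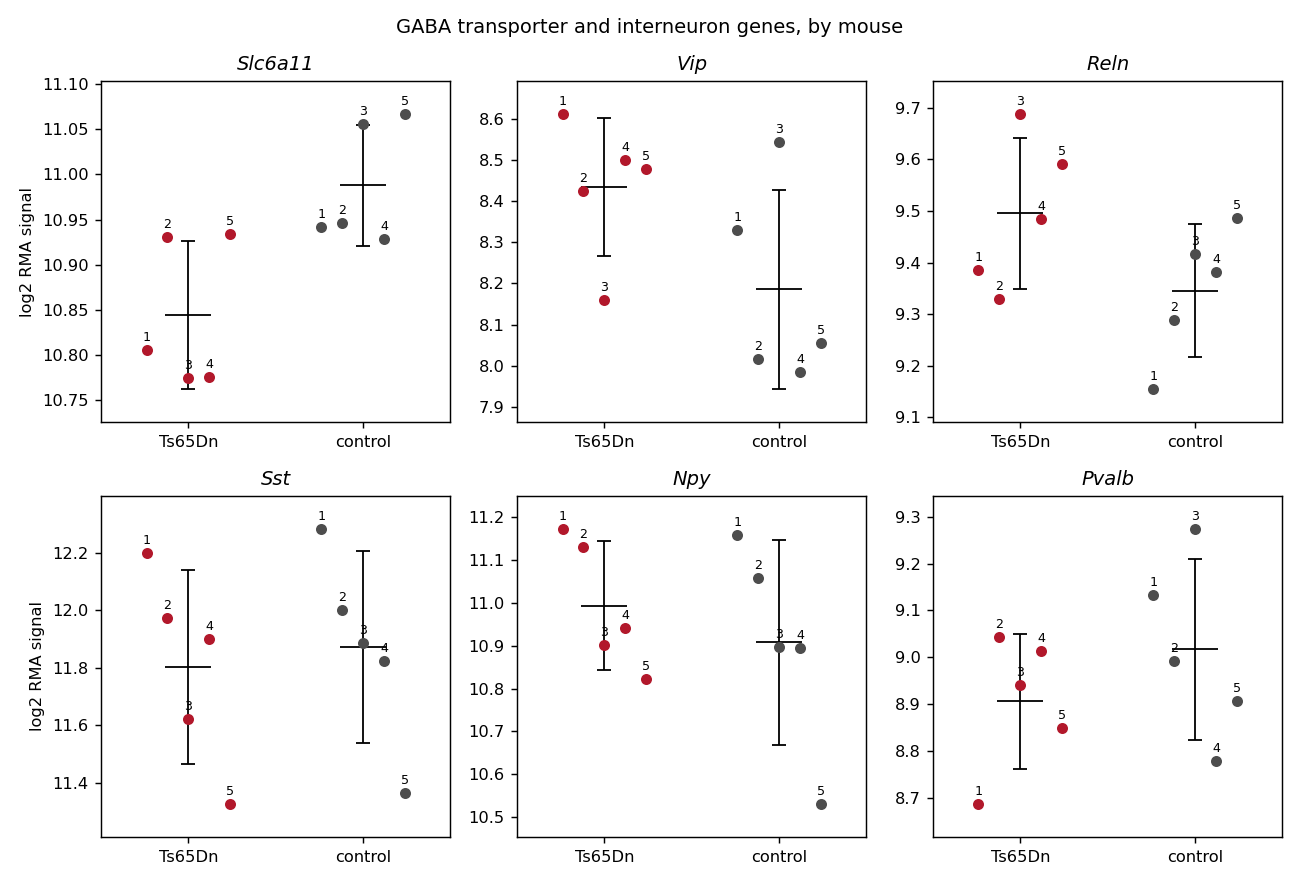
Log2 signal of Slc6a11, Vip, Reln, Sst, Npy and Pvalb in each mouse (points, numbered by replicate), with the mean and SD of each genotype (black, n = 5); each panel has its own scale. Sst and Npy are highest in the mouse numbered 1 and lowest in the mouse numbered 5 of both genotypes, whereas Slc6a11 meets between genotypes only at 10.93.

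Over the 8 markers 3 differences were positive (Npy, Reln and Vip) and 5 negative. The median was -0.02 while the mean was 0.01, so the sign of the summary depends on how it is taken. The mean signal of the 8 genes was 10.01, 10.06, 9.79, 9.96 and 9.83 in Ts65Dn mice, and 10.01, 10.02, 9.997, 9.87 and 9.74 in control mice.

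Further genes of the same pathways were read from 2 lists. Of 30 other GABA genes 24 were measured, with 0 past adjusted p 0.05 in either direction (median difference 0.01), while Slc38a5 and Gabrr2, both higher, reached an unadjusted p under 0.05 (8.33% of the list, against 3.16% of all transcript clusters). Slc38a5, a glutamine transporter of astrocytes, had 7.40, 7.52, 7.50, 7.53 and 7.21 in Ts65Dn mice, and 7.19, 7.02, 7.15, 7.04 and 7.26 in control mice. Its difference was 0.30 ± 0.07 (SE, adjusted p = 0.225), and Ts65Dn replicate 5 alone lay within the control range. Gabrr2, the rho2 receptor subunit, differed by 0.24 ± 0.07 (SE, adjusted p = 0.908), Stk39, a kinase that acts on the chloride transporters, by 0.13, and Shisa7, an auxiliary protein of GABA-A receptors, by -0.09.

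Of 31 other interneuron genes 29 were measured, with 0 past adjusted p 0.05 in either direction and a median difference of -0.04, and in 1 of them (3.45%, against 3.16% of all transcript clusters) the unadjusted p was under 0.05. That gene was Nos1, the neuronal nitric oxide synthase of neurogliaform and related interneurons. It had 9.20, 9.30, 9.14, 9.05 and 9.41 in Ts65Dn mice, and 9.43, 9.43, 9.53, 9.62 and 9.61 in control mice. Every Ts65Dn mouse lay below every control mouse, which made it 1 of 29 listed genes (3.45%) without overlap, against 0.884% of all transcript clusters. The difference of -0.30 ± 0.07 (SE; a fold of 0.811) had an unadjusted p of 0.00103 and an adjusted p of 0.225. Elfn1, a synaptic protein of somatostatin interneurons, differed by -0.14 (unadjusted p = 0.0501), Sox6, a transcription factor that acts after Lhx6, by -0.08 (unadjusted p = 0.0588), and Calb1, which encodes calbindin of granule cells and some interneurons, by -0.13 (unadjusted p = 0.0634), all with adjusted p = 1.00 in the limma fit.

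A test built on the ranks of the 25 array-by-array fold changes, close to the one the study used, gave another count. With the limits that the study set on its rank statistic, an alternative added after the data were seen, it called 6 of the 29 genes (20.7%), against 5.39% of all transcript clusters. They were Gabra2, Slc6a11, Gabra3 and Gabrg1, lower in Ts65Dn mice, and Vip and Reln, higher. The statistic is scaled over all transcript clusters, so the share called among all of them is largely set by the limits themselves. Fold changes are ranked without scaling by the spread of a gene, and the 29 genes had a median signal of 10.58, against 7.40 for all genes. Whether the 6 exceed what genes of such signal and spread would give was not tested. After Benjamini-Hochberg adjustment of its p-values the same method called 0 of 23410 transcript clusters.

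Facts of the whole data set bear on all of these values. Array medians lay between 7.38 and 7.41 and no pair of arrays held identical values. Hippocampal marker genes, 9 of 9 measured, averaged 10.20 to 10.49 in Ts65Dn mice and 10.32 to 10.47 in control mice. Among them Wfs1, a marker of CA1 pyramidal neurons, lay between 10.34 and 10.73 in Ts65Dn mice and between 10.84 and 10.97 in control mice (difference -0.35 ± 0.07, SE, adjusted p = 0.0925). It was the 1 gene of the 9 without overlap (11.1%, against 0.884% of all transcript clusters). C1ql2 of granule cells differed by 0.24 (adjusted p = 1.00), Prox1 of the same list by 0.04, and the median difference of the list was 0.03. Calb1, named above for granule cells and some interneurons, differed by -0.13.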

How the data were processed

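Hippocampal RNA of 5 Ts65Dn and 5 control mice was hybridised to 1 array each. Per the authors the deposited log2 signals came from RMA (background correction, quantile normalisation and summary per transcript cluster), and the submitters' notes also name limma and mm10. Of 35556 rows, 21789 had 1 gene symbol in the platform annotation and 1621 several, and these 23410 were tested. A gene with several transcript clusters was read from that with the highest mean. Probe positions were not checked, and coordinates are those of RefSeq genes on GRCm38.p6. The test was the two-sided moderated test of limma 3.58.1 (lmFit, eBayes; R 4.3.3) on genotype alone, adjusted by Benjamini-Hochberg over the 23410 rows, and the fit was tested on simulated data. The number of mice sets the precision. Columns of other samples were 0. The 29 genes, the lists and the rule for genes given mouse by mouse (4 cluster genes, those at an unadjusted p under 0.05, the enzymes, chloride transporters and 5 peptide or parvalbumin markers) were chosen with earlier results of these data known. Of each pathway list the 4 genes with the smallest p are named. Alternatives covered the rows tested, a dim filter at 6, 2 further normalisations, 2 variance models, a rank method, a threshold of 0.1, the replicate number as a block and each array left out. Plots were drawn with matplotlib 3.10.9.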

Additional observations from a re-analysis of the deposited data

Results flagged for a closer look

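Each of the 29 genes and the 3 group means was examined within each genotype for 1 mouse far from the other 4, by the gap to the nearest mouse over the whole range. Of 64 such sets 2 had a gap over 0.71 of the range, and chance passes about 1 in 20. Gabra2 was 11.47 in control replicate 4, below the 11.70 to 11.74 of the other control mice. The gap took 0.845 of the range, which among control mice was only 0.28. Lhx6 was 8.15 in control replicate 5, below the 8.37 to 8.42 of the other control mice, with a gap of 0.830 of the range. The same mouse was the lowest control for Sst, Npy and Cck.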

How the results depend on the processing

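The count of members past adjusted p 0.05 was 0 in all settings. The limits on the rank statistic, which are not an adjusted p, called 6 of the 29 genes and 1262 transcript clusters, whereas the rank method with adjusted p-values gave 0 and 0. The count over all transcript clusters otherwise stayed between 51 and 82, against 74. Gabra2 and Slc6a11 kept their sign in every setting, with the difference of medians of Gabra2 at -0.52. Of 29 genes 14 turned sign in at least 1 setting, none with a difference over 0.09 in the fit reported. Quantile normalisation turned Gabrb2 to -0.00942, centring on array medians turned Gad1 to 0.000604, and array weights turned Gabrb1 to -0.0124 and Nlgn2 to 0.0158. Leaving out each mouse in turn gave ranges that crossed 0 for Gabrb2 (-0.00285 to 0.013), Gad1 (-0.0318 to 0.0446), Gabrd (-0.0787 to 0.0303), Slc12a5 (-0.0285 to 0.00397), Gabrb1 (-0.0204 to 0.0384), Nlgn2 (-0.0365 to 0.0291), Gabre (-0.0199 to 0.0455), Sst (-0.194 to 0.0522), Cck (-0.0486 to 0.0257), Gabra5 (-0.00685 to 0.0588), Gad2 (-0.124 to 0.00297), Slc6a13 (-0.314 to 0.0471), Abat (-0.132 to 0.00256) and Npy (-0.00861 to 0.148), and the cause was not tested. Without crossing 0, Slc12a2 ran from 0.00491 (without control replicate 1) to 0.162 (without control replicate 5), Pvalb from -0.17 to -0.0458 and Gabrg1 from -0.273 to -0.114. The same ranges of the group medians were -0.07 to -0.02 for GABA-A subunits, -0.04 to -0.01 for synthesis, transport and synapse, and -0.06 to 0.03 for interneuron markers. With genotype means removed, 2 of the 20 genes most like Gabra2 lay on chromosome 5, against 3. With replicate number as a block, 0 of the 29 genes and 76 transcript clusters passed, and at an unadjusted p under 0.05 there were 5 of the 29 genes (17.2%: Gabra2, Slc6a11, Reln, Gabrg1 and Gabra3), against 5.04% of transcript clusters. Deviations of same-numbered mice correlated at 0.51, 0.27, 0.32, 0.03 and 0.46, and 7 of 10 mice correlated best with their own number, but since 1 of the 5 pairs stayed under 0.1 the numbers were not taken to pair the mice. Gabre and Gabrq were not tested under the dim filter. With 5 mice per genotype the widest intervals, of Calb2 (-0.76 to 0.34) and Slc6a13 (-0.58 to 0.42), include sizeable differences in both directions.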
